A study of Mus musculus with 24 samples.

Results

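The genes of polyamine metabolism and its antizyme control were followed in RNA and in ribosome-protected fragments (RPFs, the mRNA stretches that a ribosome shields from nuclease). They were chosen by name: Odc1, Amd1, Srm and Sms, which make polyamines, Oaz1, Oaz2 and Azin1, which control ornithine decarboxylase, and Sat1 and Smox, which break polyamines down. All 9 were present among the 23845 genes with RNA counts and the 20436 genes with RPF counts, and all 9 passed the filter on low counts in both assays. The libraries came from hippocampal slices with CA3 cut off, which the study calls CA1 enriched. Wild-type (WT) slices were compared with Tsc2+/- slices, each given vehicle (ACSF) or DHPG, which activates metabotropic glutamate receptors of group I (100 µM, 5 min). The mice were males aged 28 to 42 days on a C57BL/6J background. The Tsc2+/- mice carried a germline loss of 1 Tsc2 allele, made by crossing Tsc2flox with CMV-Cre mice, so every cell type was heterozygous. Each library pooled slices from several mice, and all lysates held cycloheximide at 100 µg/ml. Each of the 4 combinations of genotype and treatment had 3 lysates, and each lysate gave 1 RNA and 1 RPF library.

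Polyamines are small positively charged molecules made from ornithine and S-adenosylmethionine, and they bind RNA, ribosomes and ion channels. Cells hold their level by feedback on translation. The antizyme mRNAs need a shift of reading frame that polyamines promote, while the Odc1, Amd1 and Azin1 mRNAs carry upstream reading frames in their leaders that limit translation of the main frame. Antizyme binds ornithine decarboxylase and carries it to the proteasome, and antizyme inhibitor binds antizyme and frees the enzyme. In neurons, spermine and spermidine also block several glutamate receptor and potassium channels.

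The frameshift sites of the 2 antizymes are shown because they define how these mRNAs are read. The capitals mark the stop codon of the first frame, at which ribosomes change frame. Both sequences run 5′ to 3′ on the plus strand of GRCm38.p6 (the build also named mm10), at chr10:80828271-80828330 for Oaz1 and chr9:65686248-65686307 for Oaz2, inside the coding sequence.
Oaz1: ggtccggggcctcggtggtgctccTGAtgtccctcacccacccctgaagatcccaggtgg
Oaz2: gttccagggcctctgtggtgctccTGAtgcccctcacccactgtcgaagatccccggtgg
The sites were identical at 51 of 60 bases (85%), at 21 of the 24 bases before the stop codon and at 27 of the 33 after it. The first frame held 68 codons in Oaz1 and 32 in Oaz2, followed by 159 and 157 codons in the shifted frame. The first frame thus made up 30% of the coding sequence of Oaz1 and 16.9% of that of Oaz2. The deposited counts are sums over a whole gene, so ribosomes before and after the shift were not told apart.

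The upstream reading frames nearest the 5′ end of the Amd1 and Odc1 leaders are shown because the Amd1 frame is a known site of polyamine control and Odc1 carries one of like size. The capitals mark the start and stop codons. The Amd1 frame lies at chr10:40302155-40302175 on the minus strand, 13 bases from the start of the transcript, and the Odc1 frame at chr12:17544921-17544947 on the plus strand, 48 bases from it.
Amd1: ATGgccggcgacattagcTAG
Odc1: ATGacgacgtgctcggcgtataagTAG
They hold 6 and 8 codons before the stop. The leader of Amd1 was 330 bases long with 1 upstream ATG, that of Odc1 410 bases with 2, that of Azin1 750 bases with 6, that of Sms 334 bases with 4 and that of Sat1 281 bases with 2. The leaders of Oaz1, Oaz2, Srm and Smox held none and were 104 to 201 bases long. Across the 13925 genes tested in RNA with a coding model, 50.0% had an upstream ATG and the median leader was 171 bases. RPFs were counted over coding sequences without the first and last 30 bases, so ribosomes on the upstream frames were not counted.

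Most of these genes have near-identical copies elsewhere in the genome, which bears on what their counts hold. Every 30-base stretch of the counted coding sequence of Amd1 and of Sms was found exactly at a second place in GRCm38.p6. The share was 90.1% for Oaz1, 83.5% for Odc1, 63% for Oaz2, 42.6% for Sat1 and 19% for Srm, and 0% for Azin1 and Smox. Over 75-base stretches of the whole transcript, a length set here and not read from the libraries, it was 84% for Amd1, 82.6% for Oaz1, 45.6% for Oaz2, 40.5% for Sms, 38.9% for Odc1, 24.3% for Sat1 and 0% for Srm, Azin1 and Smox. Amd2, the intronless copy of Amd1, was not among the genes with counts. Reads that match both a gene and its copy cannot be told apart, and the authors kept only uniquely mapped reads. The counts may thus lack reads of these genes or hold reads of a copy, and which of these holds cannot be seen from them. The levels and identity of these genes carry that uncertainty, and Azin1 and Smox do not share it.

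RNA libraries held 14801679 to 24067838 counts and RPF libraries 5296006 to 13613673. In the RPF libraries of replicates 2 and 3, 97.9% to 98.5% of non-zero counts were even numbers, against 48.2% to 49% in replicate 1. Tsc2 RNA was 186 to 214 CPM (counts scaled to the TMM-adjusted library size) in the 6 WT libraries and 128 to 137 in the 6 Tsc2+/- libraries, and its RPFs were 123 to 146 and 76.5 to 84.5 CPM. Markers of CA1 neurons summed to 1057 to 1190 CPM per RNA library, and those of CA3 to 21.1 to 28.4. Dentate markers were lower in the Tsc2+/- DHPG libraries (16.4 to 23.3 CPM summed over 3 markers, none at 0 in every library) than in the WT DHPG libraries (28.1 to 37.3), as were blood markers in Tsc2+/- vehicle (2.59 to 15.5) against WT vehicle (19.8 to 25.3), and their part in the genotype values below was not tested. One library stood apart in its effect on the calls. Without the lysate of WT vehicle replicate 2, the genes called for a change in RPFs per RNA with DHPG in WT numbered 376 in place of 6, and those in RNA 112 in place of 0.

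**Figure D1:**
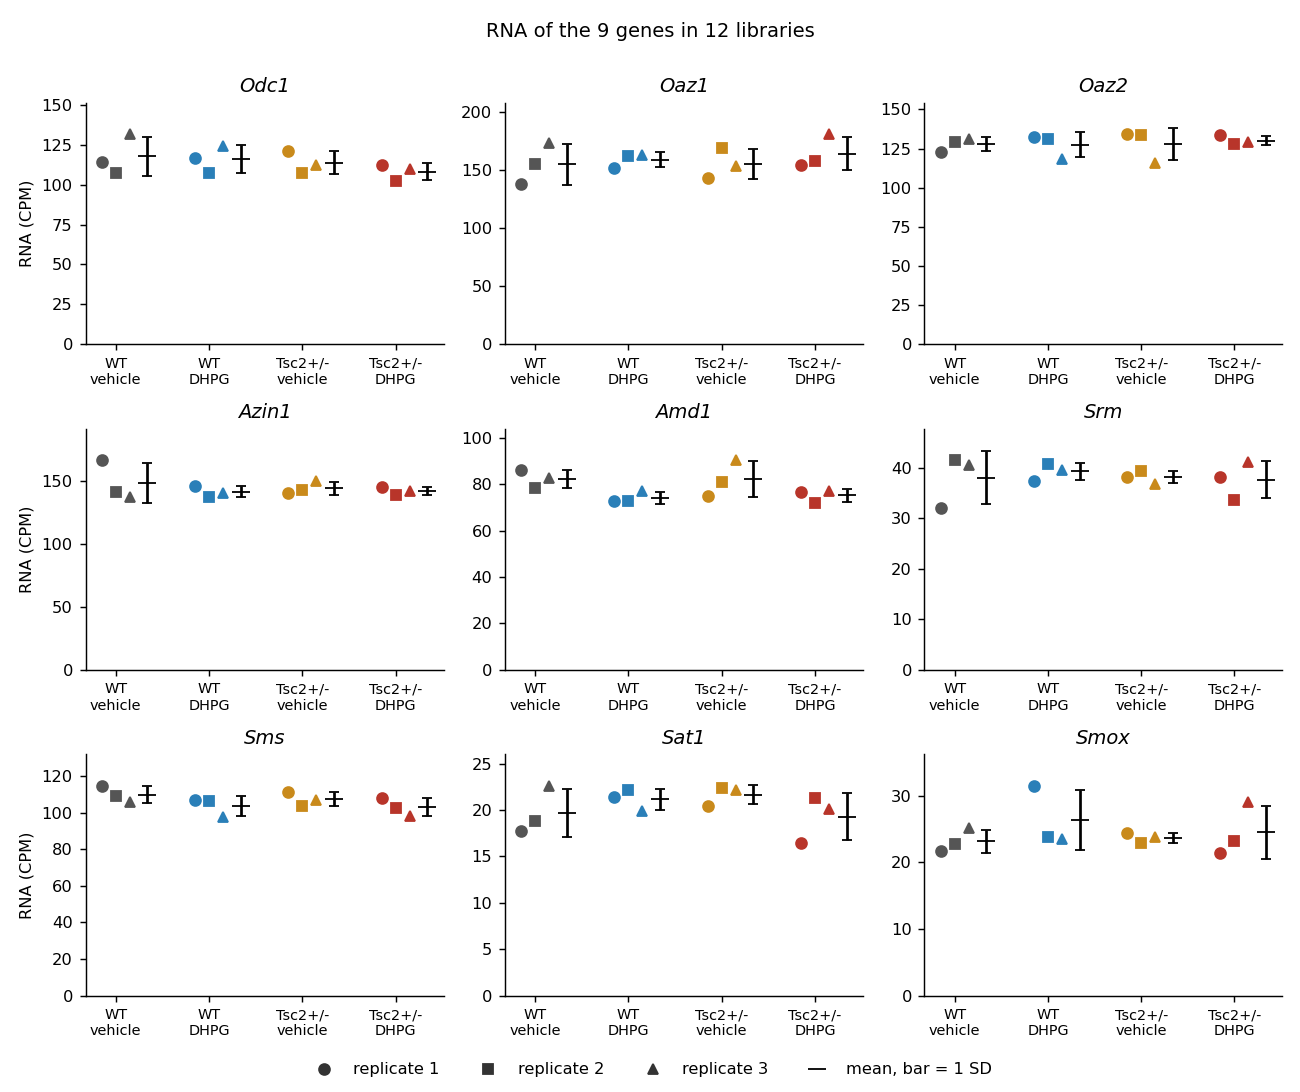
RNA level of each gene in CPM (vertical axes, each starting at 0) in the 3 libraries of each group, by genotype and treatment. Symbols are replicates 1 to 3, and the bar beside them is the mean with 1 SD. The 4 groups overlapped for most genes, and the WT DHPG libraries of Amd1 (72.6 to 77.2 CPM) lay below its WT vehicle libraries (78.3 to 86.0 CPM). The share of all genes without overlap was not counted.

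Among the 9 genes, the coefficient of variation of RNA CPM over the 12 libraries of all groups ran from 4.71% for Sms to 12.1% for Smox. That of the RPFs ran from 4.97% for Sms to 21.3% for Smox, the gene with the fewest RPF counts (46 to 195 per library). The other genes had 122 to 1355 RPF counts per library, and all 9 had 263 to 4085 RNA counts. The coefficients were not computed for all genes, so they are descriptions of these 9 only.

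Levels were compared between genes per length, as CPM per kb of transcript for RNA and CPM per kb of the counted coding sequence for RPFs. In WT vehicle libraries the highest RNA level was that of Oaz1, at 145 ± 16.4 CPM per kb (SD, n = 3), which placed it above 97.0% of 12751 genes. Oaz2 followed at 69.3 ± 2.34 and Odc1 at 46.2 ± 4.90. Azin1, Sms, Srm and Amd1 lay between 25.7 and 29.5 CPM per kb and did not differ beyond their spread from 1 neighbour to the next. Sat1 was at 16.9 ± 2.20 and Smox lowest, at 10.2 ± 0.770, near the middle of all genes (above 55.7%). In RPFs the order began with Oaz1 at 159 ± 12.3 and Oaz2 at 136 ± 22.8 CPM per kb, whose spreads overlapped, followed by Sms at 80.7 ± 4.49. It ended with Odc1 at 44.2 ± 6.83, Amd1 at 26.8 ± 2.89 and Smox at 8.57 ± 1.98.

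RPFs per RNA (translational efficiency, TE), as the ratio of these 2 levels, fell into tiers. The 4 lowest in WT vehicle were Smox at 0.840 ± 0.214 (SD, n = 3), Odc1 at 0.958 ± 0.141, Amd1 at 1.05 ± 0.136 and Oaz1 at 1.12 ± 0.213, each below the median of all genes, 2.25, and above only 11.4% to 18.3% of them. These 4 overlapped with each other, their libraries spanning 0.633 to 1.34. The middle tier held Oaz2 at 1.97 ± 0.402, Azin1 at 2.12 ± 0.367, Srm at 2.43 ± 0.674 and Sms at 2.74 ± 0.251, again with overlap between neighbours. Sat1, which acetylates spermidine and spermine for export, stood highest at 3.65 ± 0.336, above 74.0% of genes, and its libraries (3.45 to 4.03) did not overlap with the others. In all 12 lysates of the 4 groups the lowest of the middle tier lay above the highest of the 4 low genes, and in 11 of 12 Sat1 was the highest. The tiers were drawn from the 3 WT vehicle lysates, which are among these 12, and the same lengths were used in every lysate. In the low tier, most of the counted coding sequence of Amd1, Oaz1 and Odc1 had exact copies elsewhere, and that of Smox had none. In the middle tier the share ran from 0% for Azin1 to 100% for Sms. The part of copies in these ratios was not tested. The ratios also depend on the transcript chosen for the lengths. With the shortest RefSeq transcript in place of the longest, Sat1 moved to 7.87 and Smox to 1.32, whose libraries (0.997 to 1.67) then touched those of Oaz2 (1.64 to 2.42).

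**Figure D2:**
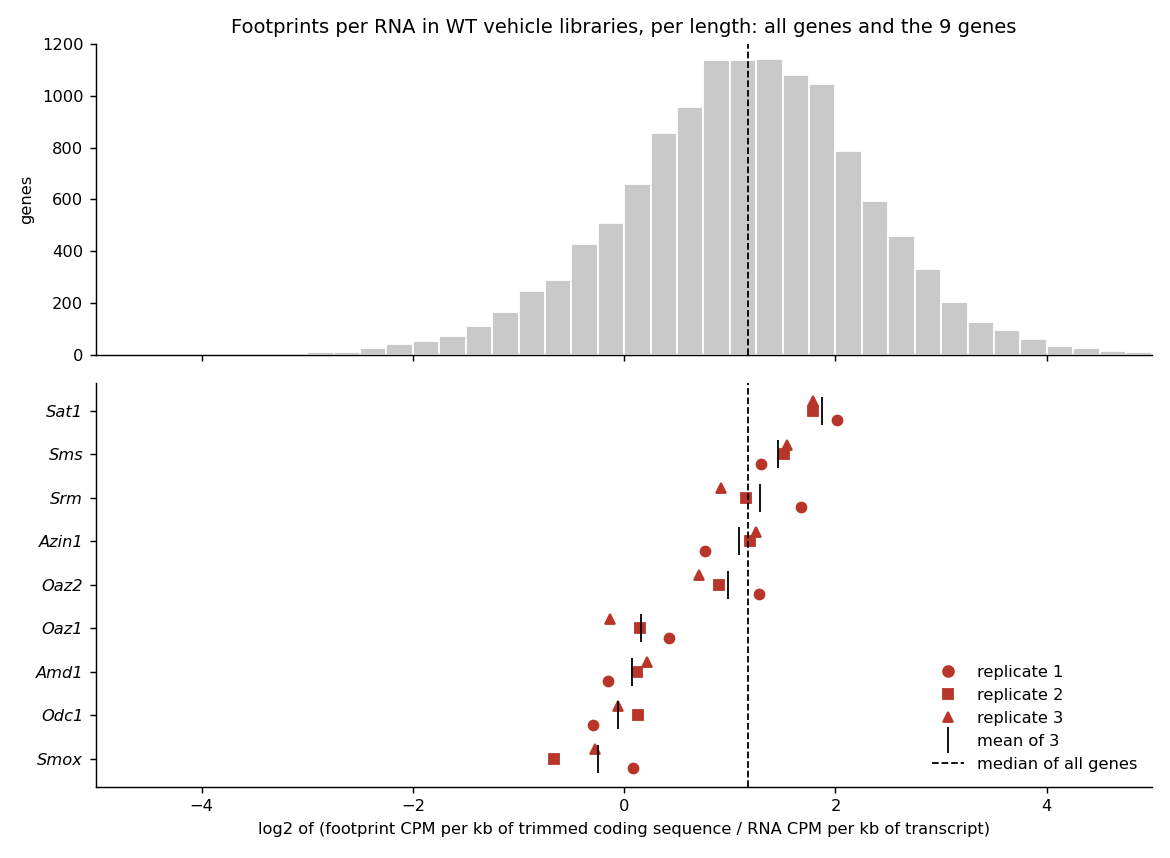
Top, number of genes (vertical axis) by log2 of the RPF CPM per kb of counted coding sequence over the RNA CPM per kb of transcript (horizontal axis) in WT vehicle libraries. Bottom, the same ratio for the 9 genes, with a symbol for each replicate, a black tick for the mean of 3 and a dashed line at the median of all genes (2.25 before the log). Smox, Odc1, Amd1 and Oaz1 sit left of the line, and Sat1 right of it.

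The 2 antizymes differed in how RNA and RPFs related. Per length, Oaz1 RNA was 1.83 to 2.41 times Oaz2 RNA in the 12 RNA libraries (mean 2.12 ± 0.181, SD), whereas Oaz1 RPFs were 1.05 to 1.61 times Oaz2 RPFs (1.26 ± 0.173). The ranges did not overlap, and Oaz2 had more RPFs per RNA than Oaz1 in 12 of 12 lysates. Both have copies elsewhere in the genome, to unequal extent, and their part in this difference was not tested. Against their target, Oaz1 RNA was 2.80 to 3.90 times Odc1 RNA per length and Oaz1 RPFs 2.96 to 5.01 times Odc1 RPFs. Azin1 RNA was 0.168 to 0.258 times Oaz1 RNA, and Azin1 RPFs 0.328 to 0.443 times Oaz1 RPFs. For each of these ratios the libraries of all 4 groups overlapped.

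Changes between groups were tested for RNA, for RPFs and for RPFs per RNA in 7 comparisons each, with the edgeR quasi-likelihood test adjusted over all genes tested by Benjamini-Hochberg. None of the 9 genes was called (adjusted p under 0.1) in any of the 21 comparisons, that is in 0 of 189 tests, and the smallest adjusted p was 0.257. DESeq2 in place of edgeR called 1 of them, in 1 comparison (Amd1, below). Unadjusted p was under 0.05 in 9 of the 189 tests (4.76%), against 5.46% over all genes in the same comparisons. No fitted change was larger than 0.5 on the log2 scale. Calls were rare among all genes as well. In RNA, 0.0896% of 14516 genes were called between genotypes under vehicle, 0.0482% between genotypes under DHPG, 0% for DHPG in WT, 0% for DHPG in Tsc2+/-, 0% for the interaction, 0.227% for genotype averaged over both treatments and 0.0207% for DHPG averaged over both genotypes. In RPFs the shares of 12877 genes were 0.0233%, 0.0155%, 0.0311%, 0%, 0%, 0.0621% and 0.0311% in the same order. For RPFs per RNA they were 0%, 0%, 0.0469%, 0%, 0%, 0% and 0.0469% of 12785 genes. A count of 0 among 9 genes is therefore what the background gives, and says little of the genes themselves.

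**Figure D3:**
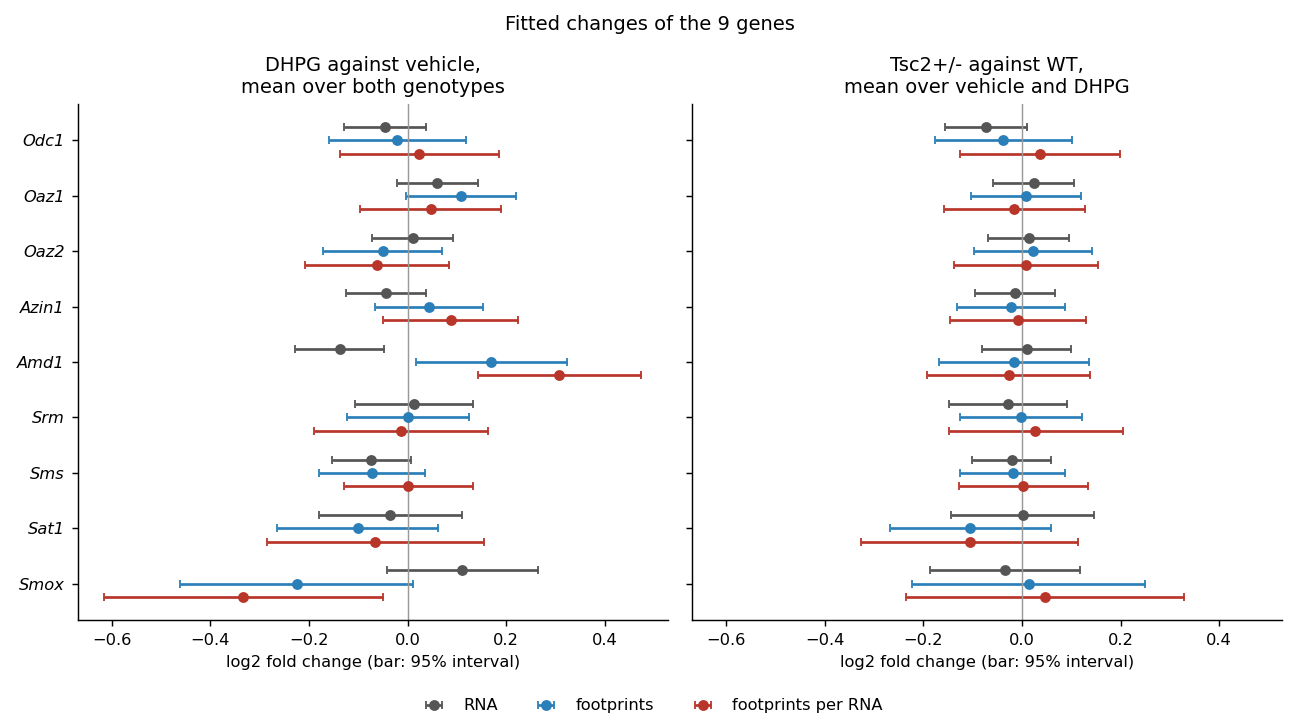
Fitted log2 fold change (horizontal axes) of each gene in RNA, RPFs and RPFs per RNA, for DHPG against vehicle averaged over both genotypes (left) and Tsc2+/- against WT averaged over both treatments (right). Bars are 95% intervals from the standard error of the fit, not adjusted for the number of tests. On the left, all 3 intervals of Amd1 and the interval of Smox in RPFs per RNA leave out 0. On the right, every interval holds 0.

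No genotype value passed the test for any of the 9 genes. Averaged over both treatments, the log2 fold change of RNA in Tsc2+/- against WT ran from -0.07 (Odc1) to 0.02 (Oaz1), with a median of -0.01 over the 9 genes and 0.00 over all genes. That of RPFs ran from -0.11 (Sat1) to 0.02 (Oaz2), and that of RPFs per RNA from -0.11 (Sat1) to 0.05 (Smox). Some averaged values joined opposite signs, none of them called. Sat1 RNA differed by 0.14 under vehicle (adjusted p = 0.991) and by -0.14 under DHPG (adjusted p = 0.997). Other genes did so too, such as Azin1 in RPFs, at 0.08 under vehicle and -0.12 under DHPG. Under single treatments the largest values were -0.19 for RPFs (Sat1 under DHPG) and 0.18 for RPFs per RNA (Smox under DHPG). The standard errors of the averaged values were 0.04 to 0.08 for RNA, 0.05 to 0.12 for RPFs and 0.07 to 0.14 for RPFs per RNA. The widest 95% intervals, those of Smox, reached 0.15, 0.24 and 0.28 to either side of the fitted value, and those of the other genes were narrower. In these bulk libraries, fewer cells of a type and less RNA per cell cannot be told apart.

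Odc1 encodes ornithine decarboxylase, the first and rate-limiting enzyme of the pathway. Its RNA in replicates 1, 2 and 3 was 114, 108 and 132 CPM in WT vehicle and 117, 107 and 125 with DHPG, and in Tsc2+/- it was 122, 108 and 113 with vehicle and 113, 103 and 110 with DHPG. Its RPFs were 48.4, 61.5 and 65.8 CPM in WT vehicle and 59.0, 57.7 and 64.4 with DHPG, and in Tsc2+/- they were 62.4, 50.7 and 66.0 with vehicle and 61.4, 50.5 and 56.2 with DHPG. No group stood clear of another in either assay. Odc1 RNA in Tsc2+/- against WT had a fitted difference of -0.07 on the log2 scale (SE 0.04, adjusted p = 0.849). It was lower in 4 of 6 contrasts of same-numbered libraries. Such contrasts, here and below, take the number as a mark of batch, and their tallies were not counted over all genes. With DHPG, averaged over both genotypes, its RNA differed by -0.05 (SE 0.04, adjusted p = 0.836), its RPFs by -0.02 (SE 0.07, adjusted p = 0.980) and its RPFs per RNA by 0.02 (SE 0.08, adjusted p = 0.958) on the log2 scale. The genes whose log2 CPM followed that of Odc1 most closely over the 12 RNA libraries were Uros (Pearson's r = 0.884), Ewsr1 (0.859) and Ckb (0.839), of 9240 genes with a mean of at least 10 CPM. Over the 12 RPF libraries they were Klhl28 (0.910), Derl2 (0.905) and Arih2 (0.902), of 9078 genes. These correlations are descriptions of genes picked as the highest of those examined, over libraries that differ in depth and may differ in batch.

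Amd1 encodes S-adenosylmethionine decarboxylase, which supplies the aminopropyl groups for spermidine and spermine, and it gave the largest deviations of the 9 genes relative to their errors. In replicates 1, 2 and 3 its RNA was 86.0, 78.3 and 82.6 CPM in WT vehicle and 72.7, 72.6 and 77.2 in WT DHPG. It was 75.2, 81.1 and 90.5 CPM in Tsc2+/- vehicle and 76.8, 72.0 and 77.0 in Tsc2+/- DHPG. The WT groups did not overlap, and the Tsc2+/- groups did. The share of all genes whose groups do not overlap was not counted, so this is a description only. Its RPFs were 22.7, 25.1 and 28.2 CPM in WT vehicle and 28.1, 26.9 and 34.2 in WT DHPG. They were 23.9, 23.6 and 31.2 CPM in Tsc2+/- vehicle and 25.3, 26.2 and 33.5 in Tsc2+/- DHPG. RPFs were higher with DHPG in 6 of 6 contrasts of same-numbered libraries, RNA lower in 5 of 6, while the groups overlapped in RPFs.

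Amd1 RPF CPM per RNA CPM was 0.264, 0.3203 and 0.341 in WT vehicle, and 0.387, 0.370 and 0.443 in WT DHPG. It was 0.318, 0.291 and 0.345 in Tsc2+/- vehicle, and 0.329, 0.364 and 0.436 in Tsc2+/- DHPG. The WT groups did not overlap, the Tsc2+/- groups did, and DHPG was higher in 6 of 6 contrasts. How many of all genes behave in this way was not counted. Within replicate 1, 2 and 3 the log2 ratio of DHPG to vehicle was 0.55, 0.21 and 0.38 in WT, and 0.05, 0.32 and 0.34 in Tsc2+/-. The fitted log2 fold change of Amd1 RPFs per RNA was 0.38 in WT (SE 0.12, 95% interval 0.14 to 0.61, adjusted p = 0.257) and 0.24 in Tsc2+/- (SE 0.12, 95% interval 0.00 to 0.47, adjusted p = 0.999). Averaged over both genotypes it was 0.31 (SE 0.08, 95% interval 0.14 to 0.47, adjusted p = 0.260). The difference between the genotypes was -0.14 (SE 0.17, adjusted p = 0.999). The RNA part of the averaged change was -0.14 (SE 0.05, adjusted p = 0.498) and the RPF part 0.17 (SE 0.08, adjusted p = 0.690). With trends along GC content and length removed, Amd1 RNA was at -0.08 (adjusted p = 0.717) for the average and at -0.06 in WT (adjusted p = 0.997), against -0.14 and -0.15 as fitted. None of these passed the threshold.

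The Amd1 call depended on the library and tool. Without WT vehicle replicate 2 the change in RPFs per RNA was 0.46 in WT (adjusted p = 0.0817) and 0.35 averaged over both genotypes (adjusted p = 0.0761), both called. DESeq2 gave 0.31 for the average (adjusted p = 0.0849), also called. Over all 23 alternatives the adjusted p of the average ran from 0.0761 to 0.773 and that in WT from 0.0817 to 0.950, with calls in 2 and 1 of 23. The fitted value stayed above 0 in 23 of 23 for both, between 0.22 and 0.35 for the average and between 0.22 and 0.47 in WT. The lowest, 0.22 in both, came from removing trends along GC content and length. Of the 23, 1 changed only the threshold, to an adjusted p under 0.05. It reused the reported fit, so its sign was fixed in advance. The fits lacking 1 replicate number or 1 library shared most of their libraries with the reported fit.

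**Figure D4:**
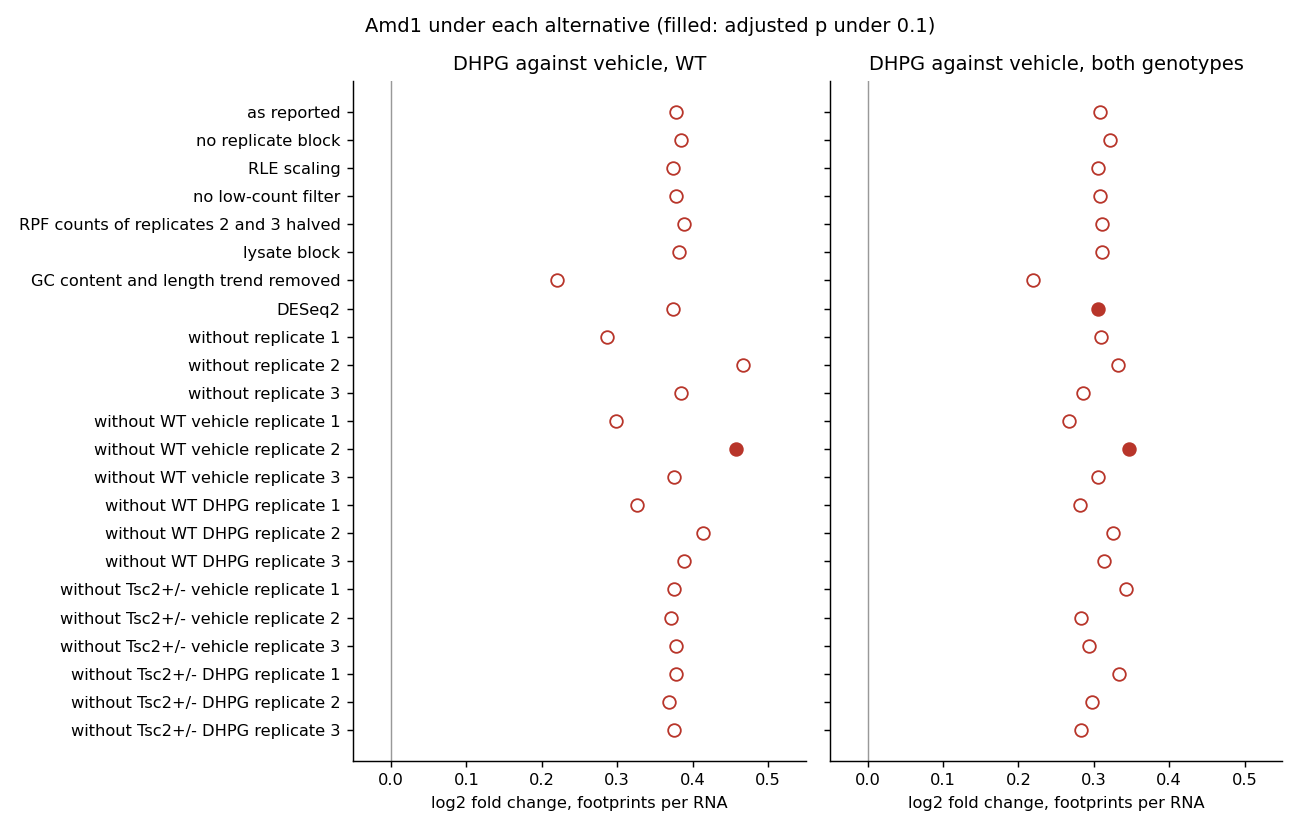
Fitted log2 fold change of Amd1 RPFs per RNA with DHPG (horizontal axes) in WT (left) and averaged over both genotypes (right). Rows are the fit as reported and each alternative, without the one that changed only the threshold. Filled points have an adjusted p under 0.1. Every point lies above 0, and 1 point on the left and 2 on the right are filled.

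Srm, spermidine synthase, and Sms, spermine synthase, use the product of Amd1. Srm RNA was 32.0 to 41.5 CPM and its RPFs 48.7 to 65.1 CPM over the 12 libraries, with medians of 38.8 and 58.1 CPM. With DHPG, averaged over both genotypes, Srm differed by 0.01 in RNA (SE 0.06, adjusted p = 0.979), 0.00 in RPFs (SE 0.06, adjusted p = 1.0) and -0.01 in RPFs per RNA (SE 0.09, adjusted p = 0.981) on the log2 scale. Sms was the steadiest of the genes. Its RNA was 97.5 to 115 CPM and its RPFs 75.1 to 89.3 CPM, with medians of 107 and 84.5 CPM. Sms RNA was lower with DHPG in 6 of 6 contrasts of same-numbered libraries, by a small amount (log2 fold change -0.07, SE 0.04, adjusted p = 0.698). In Tsc2+/- libraries the RPFs of Sms with DHPG (75.1, 79.6 and 81.9 CPM) lay below those with vehicle (89.3, 85.4 and 85.4) without overlap, with a fitted log2 difference of -0.14 (SE 0.08, adjusted p = 1.0), with 0% of all genes called in that comparison. In WT libraries the same change was 0.00 (SE 0.08, adjusted p = 0.993), and the difference between genotypes was -0.13 (SE 0.11, adjusted p = 0.998). The share of all genes with RPF groups that do not overlap was not counted.

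Among the regulators of ornithine decarboxylase, Oaz1 RNA was 138, 155 and 173 CPM in WT vehicle and 152, 163 and 164 with DHPG, and in Tsc2+/- it was 143, 169 and 154 with vehicle and 155, 158 and 181 with DHPG. Oaz1 RPFs were 107, 99.4 and 91.7 CPM in WT vehicle and 98.7, 122 and 108 with DHPG, and in Tsc2+/- they were 94.3, 111 and 100 with vehicle and 94.0, 119 and 112 with DHPG. The 4 groups overlapped in both. With DHPG its RPFs differed by 0.11 (SE 0.06, adjusted p = 0.754) and its RPFs per RNA by 0.05 (SE 0.07, adjusted p = 0.903), averaged over both genotypes. These Oaz1 values depended on single replicates. Over the alternatives the RPF value ran from 0.06 without replicate 2 to 0.20 without replicate 1 (adjusted p between 0.229 and 1.0), and the value for RPFs per RNA from -0.04 to 0.17 in the same fits (adjusted p between 0.647 and 0.997). Oaz2, the second antizyme, was at 116 to 134 CPM in RNA and 59.4 to 82.1 in RPFs. Its change in RPFs per RNA with DHPG was -0.06 (SE 0.07, adjusted p = 0.864).

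Azin1, the antizyme inhibitor, has no exact copies at the lengths searched. Its RNA was 166, 141 and 137 CPM in WT vehicle and 146, 137 and 140 with DHPG, and in Tsc2+/- it was 140, 143 and 150 with vehicle and 145, 139 and 142 with DHPG. Its RPFs were 72.4, 82.3 and 83.7 CPM in WT vehicle and 82.0, 94.3 and 87.2 with DHPG, and in Tsc2+/- they were 79.2, 81.2 and 91.6 with vehicle and 80.3, 83.0 and 78.1 with DHPG. The groups overlapped in both. RPFs per RNA with DHPG differed by 0.21 in WT (SE 0.10, adjusted p = 0.512, higher in 3 of 3 contrasts) and by -0.04 in Tsc2+/- (SE 0.10, adjusted p = 0.999), and the difference between genotypes was -0.25 (SE 0.14, adjusted p = 0.999). With trends along GC content and length removed, the WT value was 0.05 (adjusted p = 0.989). It ran from 0.05 to 0.30 over all 23 alternatives, with adjusted p between 0.314 and 0.989.

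**Figure D5:**
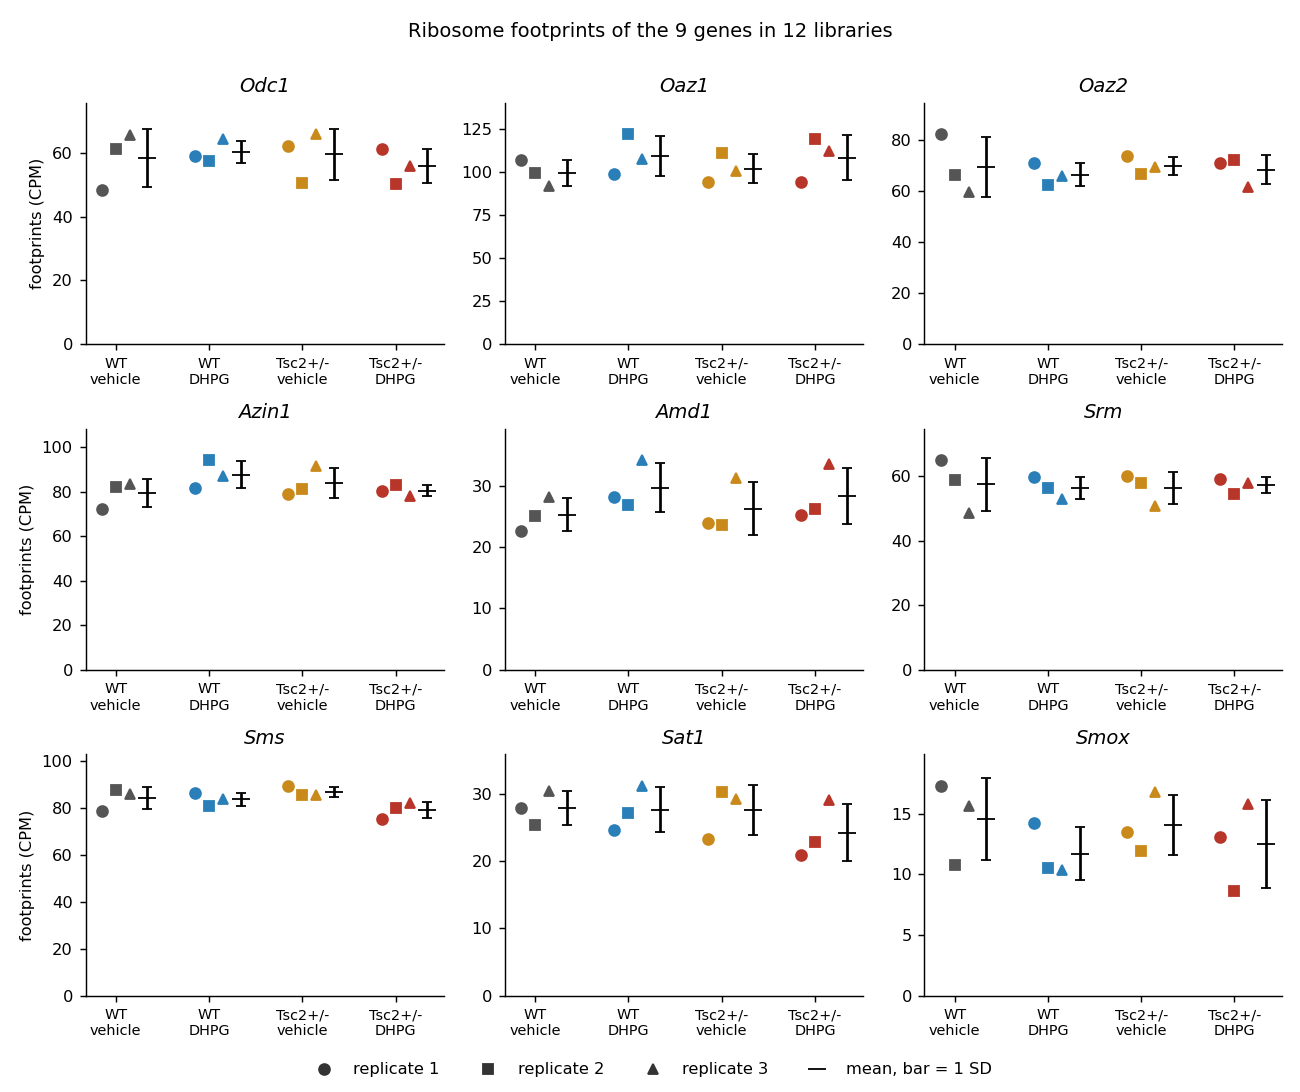
RPF level of each gene in CPM (vertical axes, each starting at 0) in the 3 libraries of each group, by genotype and treatment. Symbols are replicates 1 to 3, and the bar beside them is the mean with 1 SD. Relative to the mean, the 12 libraries of all groups spread more for Smox and Amd1 than for Sms. The coefficients of variation were 21.3% for Smox (8.60 to 17.3 CPM), 13.9% for Amd1 (22.7 to 34.2 CPM) and 4.97% for Sms (75.1 to 89.3 CPM).

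Of the catabolic genes, Smox encodes spermine oxidase, which turns spermine back into spermidine, and it has no exact copies at the lengths searched. Its RNA was 21.7, 22.7 and 25.1 CPM in WT vehicle and 31.5, 23.9 and 23.6 with DHPG, and in Tsc2+/- it was 24.4, 22.9 and 23.8 with vehicle and 21.5, 23.2 and 29.0 with DHPG. Its RPFs were 17.3, 10.8 and 15.6 CPM in WT vehicle and 14.2, 10.5 and 10.4 with DHPG, and in Tsc2+/- they were 13.5, 11.9 and 16.8 with vehicle and 13.1, 8.60 and 15.8 with DHPG. RPFs were lower with DHPG in 6 of 6 contrasts of same-numbered libraries, though the groups overlapped.

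Smox RPF CPM per RNA CPM was 0.796, 0.475 and 0.621 in WT vehicle and 0.451, 0.440 and 0.441 in WT DHPG, without overlap. It was 0.554, 0.522 and 0.706 in Tsc2+/- vehicle and 0.609, 0.372 and 0.545 in Tsc2+/- DHPG, with overlap. As for Amd1, the share of all genes without overlap was not counted. The fitted log2 fold change of Smox RPFs per RNA with DHPG was -0.46 in WT (SE 0.20, adjusted p = 0.474), -0.20 in Tsc2+/- (SE 0.20, adjusted p = 0.999) and -0.33 averaged over both (SE 0.14, adjusted p = 0.514). It was lower in 5 of 6 contrasts. Averaged over both genotypes, the RPF part was -0.23 (SE 0.12, adjusted p = 0.757) and the RNA part 0.11 (SE 0.08, adjusted p = 0.772). Over the alternatives the averaged change in RPFs per RNA ran from -0.42 to -0.25 with adjusted p between 0.313 and 0.849. Smox and Amd1 had fitted values of opposite sign with DHPG in RNA, in RPFs and in RPFs per RNA, none of them called.

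Sat1 encodes spermidine/spermine acetyltransferase, the first step of polyamine export and breakdown. Its RNA was 17.7, 18.8 and 22.6 CPM in WT vehicle and 21.4, 22.1 and 19.9 with DHPG, and in Tsc2+/- it was 20.5, 22.4 and 22.1 with vehicle and 16.4, 21.3 and 20.1 with DHPG. With DHPG its RNA differed by 0.10 in WT (SE 0.11, adjusted p = 0.921) and by -0.17 in Tsc2+/- (SE 0.10, adjusted p = 1.0), and the difference between genotypes was -0.27 (SE 0.15, adjusted p = 0.999), the largest of the 9 genes in RNA. Over the alternatives the WT value of Sat1 RNA ran from 0.02 without replicate 1 to 0.26 without replicate 3 (adjusted p between 0.791 and 0.999), and the difference between genotypes from -0.44 without replicate 3 to -0.13 without replicate 1 (adjusted p between 0.958 and 1.0). Its RPFs, 20.8 to 31.2 CPM with a median of 27.5, differed by -0.02 in WT (SE 0.12, adjusted p = 0.982) and by -0.18 in Tsc2+/- (SE 0.12, adjusted p = 1.0).

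A list of 27 further genes around the pathway held those of hypusine, relatives of the 9 genes, ornithine supply, methionine salvage and polyamine transport. Of these, 22 were tested in each assay and none was called in any comparison by the edgeR test (0 higher, 0 lower), with a smallest adjusted p of 0.293. Unadjusted p was under 0.05 for 0 to 4 of the 22 per comparison, against 3.01% to 9.07% of all genes. The 4 were in RPFs per RNA with DHPG in WT, where the share of all genes was 9.07%. The smallest adjusted p came from Eif5a2, a second form of the translation factor that carries hypusine, a residue made from spermidine. Eif5a2 RPFs averaged 21.6 CPM in WT vehicle and 27.8 with DHPG, and in Tsc2+/- they were 26.4 with vehicle and 24.6 with DHPG, against 63.1, 60, 62.9 and 63.0 CPM of RNA. Its change in RPFs per RNA with DHPG in WT was 0.45 on the log2 scale (SE 0.15, adjusted p = 0.293). Eif5a, the main form, averaged 280, 278, 278 and 277 CPM of RNA and 442, 462, 443 and 441 CPM of RPFs in the same order.

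In the methionine salvage genes, which recycle the by-product of spermidine and spermine synthesis, Mtap RNA averaged 5.27 CPM in WT DHPG and 7.49 in Tsc2+/- DHPG, a difference of 0.52 on the log2 scale (SE 0.17, adjusted p = 0.783). For Mtap RPFs per RNA the same comparison gave -0.74 (SE 0.24, adjusted p = 1.0). Mri1 RPFs averaged 11 CPM in both WT groups, 7.66 in Tsc2+/- vehicle and 9.47 in Tsc2+/- DHPG, a genotype change of -0.37 averaged over treatments (SE 0.14, adjusted p = 0.611), lower in 6 of 6 contrasts. Apip RNA gave -0.33 for genotype averaged over treatments (SE 0.14, adjusted p = 0.744), also lower in 6 of 6. Enoph1 RPFs per RNA gave 0.19 with DHPG averaged over genotypes (SE 0.08, adjusted p = 0.499), higher in 6 of 6. In the transport group, Atp13a2, a lysosomal polyamine exporter, gave 0.09 in RNA with DHPG averaged over genotypes (SE 0.04, adjusted p = 0.580). It was higher in 6 of 6 contrasts, and its RPFs per RNA gave -0.14 (SE 0.07, adjusted p = 0.565). These pathway genes were picked for a small unadjusted p or for being alike in 6 of 6 contrasts. Their tallies are therefore no support for a change. Of the untested genes, Oaz3 had at most 4 RNA counts in a library, Arg1 at most 3, Agmat at most 5 and Satl1 0 in every library. A count of 0 does not show that a gene was absent. Amd2 was not analysed here.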

How the data were processed

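RNA-seq libraries of poly(A)-selected RNA and ribosome profiling libraries were analysed from their gene counts. The authors removed adapters with Cutadapt, filtered reads with Trimmomatic, discarded rRNA and tRNA reads with bowtie2, mapped to mm10 with TopHat2, kept unique reads and removed duplicates by molecular identifier. The deposited values are expected counts from RSEM, over whole RefSeq transcripts for RNA and over coding sequences less 30 bases at each end for RPFs.

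Expected counts were rounded to whole numbers. Groups came from the labels, and 0 columns were left without a sample. Genes were filtered with filterByExpr (minimum count 10) and scaled by TMM in edgeR 4.0.16 (R 4.3.3). The robust two-sided quasi-likelihood F test took in the 12 libraries of each assay, with terms for group and for replicate number. The study corrected for batch, and taking the replicate number as the batch is an assumption, since the labels do not say what the number marks. Changes in RPFs per RNA came from a model of 24 libraries in which the group terms differed by assay, in place of the study's anota2seq. Benjamini-Hochberg adjustment covered every gene tested, and adjusted p-values under 0.1 were called. Standard errors came from the F statistic, and 95% intervals from a normal approximation. CPM used TMM-scaled library sizes. A prior count of 2 was added for log2 CPM. RNA libraries held 14801679 to 24067838 counts and RPF libraries 5296006 to 13613673. Each library pooled slices of several mice, and the study calls the libraries of a group biological replicates.

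Lengths, leaders, positions and sequences came from RefSeq on GRCm38.p6, with the longest coding transcript of each gene and coding sequences over 120 bases. Copies were counted as exact matches of 30-base or 75-base windows on either strand, away from the gene itself. Genes named were the 9 members, Tsc2, pathway genes with the smallest unadjusted p under 0.05 (up to 3 per comparison, of which the text gives those with the smallest p and those alike in 6 of 6 contrasts, together with Eif5a), and the 3 genes most like Odc1 in each assay. The members and lists were chosen with earlier results of these data known. Alternatives were DESeq2 1.42.0, DESeq2 after ComBat (sva 3.50.0), a model without the replicate block, RLE scaling, library totals and the shortest transcript for levels, no filter, only the groups compared, RPF counts of replicates 2 and 3 halved, a lysate block, removal of GC content and length trends, an adjusted p under 0.05, and fits lacking 1 replicate number or 1 library. Scripts were tested on simulated data.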

Additional observations from a re-analysis of the deposited data

How the results depend on the processing

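The count of members called differed from the reported 0 in 3 of 484 comparisons over the alternatives. For RNA with DHPG averaged over genotypes DESeq2 gave no adjusted p for any member, so its 0 there is no result. The count was 1 (Amd1) for RPFs per RNA with DHPG averaged over genotypes under DESeq2 (1 in place of 0). In the fits that left out 1 replicate number or library it ranged from 0 to 1 for RPFs per RNA with DHPG in WT and with DHPG averaged. The 1 came without WT vehicle replicate 2 in both. Of 4356 member values over the alternatives, 3898 kept their sign and 458, none of them called, did not. Both tallies include the threshold of an adjusted p under 0.05, which reused the reported fit. Its values could only keep their sign, and its counts could not rise above 0. The RPFs per RNA of Sat1 and Smox in WT vehicle were 7.87 and 1.32 with the shortest transcript, against 3.65 and 0.840, since the lengths differ.

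Same-numbered libraries deviated from their group means with correlations of 0.0228 to 0.143 in RNA (5 of 18 pairs over 0.1) and 0.0330 to 0.263 in RPFs (9 of 18). The medians were 0.0646 in RNA and 0.0961 in RPFs. For libraries of different groups with unlike numbers they were -0.0330 and -0.0598. What the number marks was not tested. The block and the tallies of same-numbered contrasts rest on the assumption that a number marks a batch. Those tallies are descriptions only. Without the replicate block no member was called (0 in each comparison), and the genes called for RPFs per RNA with DHPG in WT numbered 1 in place of 6. Counts over all genes moved by more than 1.5 times in most comparisons: for DHPG in WT, RPFs per RNA gave 0 to 376 calls over the alternatives (6 as reported) and RNA 0 to 112 (0 as reported), and for genotype averaged, RNA gave 16 to 104 (33) and RPFs 3 to 69 (8). The cause was not tested. The 46 to 195 RPF counts per library for Smox and 3 libraries a group limit the precision.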
